A study of Mus musculus with 3 samples.

Results

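Tbx1, Msc, Tcf21, Pax3, Lbx1, Six4, Eya1 and Eya4 are 8 regulators of skeletal muscle identity that act upstream of the myogenic factors, and they were followed through the cells of the mouse larynx. The 8 genes were taken by symbol from the 33696 genes of the count tables, and all 8 were present once. Their levels and the shares of cells with at least 1 unique molecular identifier (UMI, 1 counted transcript molecule) were read in satellite cells, fibroblasts and epithelium. A satellite cell, the resident stem cell of skeletal muscle, was any cell with a UMI of at least 2 of Pax7, Myf5, Chodl, Cdh15 and Calcr.

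Skeletal muscle of the head and neck does not share one developmental origin with the muscle of the trunk and limbs. Branchiomeric muscle arises from the mesoderm of the pharyngeal arches, where the T-box factor Tbx1 and the basic helix-loop-helix factors Msc (MyoR) and Tcf21 (capsulin) act before Myf5 and Myod1. In somites the paired-box factor Pax3 takes that place, and the homeobox gene Lbx1 marks precursors that migrate out of the somite toward the limbs and tongue. Homeodomain factors such as Six4 and their Eya partners, which carry a phosphatase domain and do not bind DNA themselves, act in both settings as well as in epithelia. The intrinsic muscles of the larynx are counted among the branchiomeric muscles.

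The cells came from larynges of Lrig1CreERT2/+; ROSALSL-tdTomato/+ mice, in which tamoxifen lets a Cre recombinase made from the Lrig1 locus switch on the red reporter tdTomato. Tamoxifen had been injected on 2 consecutive days and tissue was taken 1 day after recombination. Sorted tdTomato+ cells made up 3 libraries, each pooling 10 larynges of 5 males and 5 females, with no other treatment or genotype among them. Every cell studied therefore carries 1 Cre allele of Lrig1 and was sorted for a reporter of the use of that locus, so satellite cells without the reporter were not sampled, and the intrinsic and extrinsic muscles of the larynx were not kept apart. All comparisons are between groups of cells within these libraries, and the spread is that between 3 pools.

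After filters on cells and doublets, 13222, 7201 and 24119 cells remained in libraries 1, 2 and 3. They held 867, 745 and 1500 satellite cells with median depths of 7405, 8559 and 5899.5 UMIs, 2058, 371 and 1508 fibroblasts at 10305, 10632 and 9088.5 UMIs, and 7503, 5222 and 18251 epithelial cells at 14160, 17808 and 12871 UMIs. Fibroblasts and epithelial cells were defined in the same way, by at least 2 of 5 markers each. In the satellite cells the 5 satellite markers summed to 2830, 2373 and 2911 CPM (UMIs scaled to the same total in each sum of cells), against 277, 196 and 343 CPM for the 5 fibroblast markers and 116, 37.6 and 394 CPM for the 5 epithelial markers. A cluster of 3869 cells came from library 3 alone and held markers of several classes, in that 95.5% of its cells passed the epithelial gate and 26.6% the fibroblast gate. It contributed 299 of the satellite cells of library 3, and without it the epithelial markers of satellite cells in library 3 summed to 169 CPM. The satellite gate was applied first, and 661, 595 and 931 satellite cells of libraries 1, 2 and 3 passed no other gate. Over all libraries 425 satellite cells also passed the epithelial gate and 501 the fibroblast gate. Some results are also given without the cluster found only in library 3. Shares of cells include it unless stated.

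In the mouse genome (GRCm39, GENCODE vM39) all 8 genes lie on the minus strand. Tbx1 spans chr16:18399729-18409421, Pax3 chr1:78077904-78173771, Lbx1 chr19:45221109-45225311 and Six4 chr12:73146383-73160230. Msc at chr1:14823503-14826266 and Eya1 at chr1:14239167-14380543 are neighbours, 443 kb apart, and Tcf21 at chr10:22692803-22696073 and Eya4 at chr10:22978861-23226817 lie 283 kb apart. Gm9947 overlaps Msc, Gm10824 overlaps Tcf21 and Mnat1 overlaps Six4, each on the opposite strand. The count tables do not show whether reads of such pairs were ever exchanged, so the values of Msc, Tcf21 and Six4 carry that uncertainty. Genes absent from the count tables also overlap Tbx1, Lbx1 and Eya1 on the opposite strand, and Eya1 and Eya4 on the same strand. What these overlaps do to the values was not tested.

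The 300 bases before the annotated 5′ end of Tbx1, Tcf21 and Pax3, genes on which the results within satellite cells turn, are printed from GRCm39, read 5′ to 3′ on the minus strand, because Tcf21 belongs to the protein family that binds the E-box CANNTG. Capitals mark each match to CANNTG, a word that reads alike on both strands. The windows are chr16:18409422-18409721 for Tbx1, chr10:22696074-22696373 for Tcf21 and chr1:78173772-78174071 for Pax3.
Tbx1: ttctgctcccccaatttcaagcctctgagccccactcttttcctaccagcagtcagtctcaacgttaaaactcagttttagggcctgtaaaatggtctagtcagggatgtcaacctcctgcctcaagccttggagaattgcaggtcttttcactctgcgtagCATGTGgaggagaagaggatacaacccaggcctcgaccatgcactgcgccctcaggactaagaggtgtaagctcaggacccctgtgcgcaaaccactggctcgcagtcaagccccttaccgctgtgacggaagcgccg
Tcf21: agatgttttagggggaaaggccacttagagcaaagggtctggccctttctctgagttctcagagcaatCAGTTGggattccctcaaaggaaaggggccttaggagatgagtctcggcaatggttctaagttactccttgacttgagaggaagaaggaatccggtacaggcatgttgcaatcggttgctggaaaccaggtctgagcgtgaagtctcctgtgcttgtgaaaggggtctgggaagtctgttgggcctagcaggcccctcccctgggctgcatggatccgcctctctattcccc
Pax3: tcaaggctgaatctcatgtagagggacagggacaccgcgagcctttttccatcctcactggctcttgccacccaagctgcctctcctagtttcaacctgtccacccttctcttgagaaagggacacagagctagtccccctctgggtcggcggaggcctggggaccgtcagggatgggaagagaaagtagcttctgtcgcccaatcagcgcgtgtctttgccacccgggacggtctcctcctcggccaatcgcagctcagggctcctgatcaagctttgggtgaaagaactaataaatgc
The Tcf21 window held 1 E-box, CAGTTG, and the Tbx1 window held 1, CATGTG. The Pax3 window held none. Of 21431 gene windows of the same length, 73.3% held at least 1 E-box. TCAGGTT, the core of the MEF3 site read by Six4 and searched on both strands, was in none of these windows and in 4.49% of all. Absence from a window says only that these letters are not in it.

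The factors of the pharyngeal arch were present in laryngeal satellite cells of every library. Tbx1 stood at 83.5, 76.8 and 76.2 CPM in satellite cells of libraries 1, 2 and 3, and 39.0%, 42.3% and 34.0% of the cells had a UMI (95% Wilson intervals 35.8 to 42.3, 38.8 to 45.9 and 31.6 to 36.4). Fibroblasts held 4.58, 6.85 and 5.58 CPM of Tbx1, and epithelium 65.5, 78.7 and 78.0 CPM. The libraries of satellite cells and epithelium overlapped, while every fibroblast value lay far below both. Tbx1 is therefore not specific to muscle among these sorted cells, since 49.6% to 63.9% of epithelial cells held it, at a greater depth per cell. With every cell thinned to 5000 UMIs, Tbx1 was found in 29.0% ± 1.56 (SD, n = 3 libraries) of satellite cells and in a mean of 29.6% of epithelial cells. Thinning left out 764 of 3112 satellite cells and 3758 of 30976 epithelial cells. Endothelium and macrophages had been chosen beforehand as classes that should lack the members. Endothelial cells held 99.9 ± 20.1 CPM of Tbx1 (SD, n = 3, 523 UMIs in all), beside a mean of 78.9 CPM in satellite cells. They numbered 472, 27 and 28 in libraries 1, 2 and 3, and did not serve as a class without Tbx1. Macrophages had it in 4 of 103 cells in library 1 (3.88%, interval 1.52 to 9.56) at a median of 12348 UMIs.

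Msc, a repressor of the basic helix-loop-helix family, separated satellite cells from both other classes. Its level in satellite cells was 154, 171 and 133 CPM, against 12.4, 10.4 and 8.84 CPM in fibroblasts and 0.161, 0.138 and 0.443 CPM in epithelium. A UMI was found in 46.1%, 51.4% and 37.4% of satellite cells (intervals 42.8 to 49.5, 47.8 to 55.0 and 35.0 to 39.9), and no Msc UMI was found in 103 macrophages of library 1, which allows a share of cells with a UMI of up to 2.91%, counted as 3 of the cells. Over the summed UMIs the level in satellite cells was 481 times that in epithelium (95% counting interval 407 to 573), or 1223 times (946 to 1610) without the cluster found only in library 3. The groups did not overlap in any library. Without the cluster found only in library 3, satellite cells held 162 ± 8.89 CPM and epithelium 0.138 CPM. Msc was then found in 45.9% of the satellite cells of library 3 (interval 43.1 to 48.7).

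Tcf21, the relative of Msc that also marks interstitial mesenchyme in many organs, was shared with fibroblasts. Satellite cells held 84.5, 80.5 and 63.4 CPM and fibroblasts 56.7, 49.8 and 43.9 CPM, while epithelium held 0.170, 0.0318 and 0.399 CPM. Each library had more in satellite cells than in fibroblasts, and the 2 sets of values did not overlap. In edgeR's quasi-likelihood test the log2 difference between satellite cells and fibroblasts was 0.60 (SE 0.42, Benjamini-Hochberg adjusted p = 0.27938). Without the cluster of library 3 it was 0.67 (SE 0.23, adjusted p = 0.038463, edgeR). The call was thus made without that cluster and not with it, and most other alternatives did not make it. In thinned cells Tcf21 was found in 27.2% of satellite cells, 16.7% of fibroblasts and 0.155% of epithelial cells.

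The somitic factors were found in a minority of satellite cells. Pax3 stood at 18.7, 25.03 and 13.9 CPM in satellite cells, with a UMI in 6.81%, 9.93% and 5.47% of them (intervals 5.31 to 8.68, 7.99 to 12.3 and 4.43 to 6.73). Fibroblasts of libraries 1 and 2 held no Pax3 UMI, those of library 3 held 7 UMIs in 2 cells, and epithelium held 0.0536, 0.233 and 0.237 CPM. All 3 satellite values lay above every value in those classes. Over the summed UMIs satellite cells had 106 times the Pax3 level of fibroblasts (counting interval 51.2 to 266) and 96.3 times that of epithelium (76.4 to 123). Without the cluster of library 3 these ratios were 131 (59.9 to 360) and 168 (126 to 229).

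Lbx1 stood at 5.06, 8.14 and 7.65 CPM in satellite cells and was found in 3.34%, 6.04% and 4.0% of them (intervals 2.34 to 4.76, 4.54 to 7.99 and 3.12 to 5.11). No fibroblast of 3937 had a Lbx1 UMI, and 2 of 30976 epithelial cells did, both in library 3 and in its mixed cluster. The level in satellite cells was at least 94.8-fold higher than in fibroblasts, counted against a floor of 3 UMIs over the group. Macrophages of library 1 had Lbx1 in 2 of 103 cells, 1.94% with an interval of 0.534 to 6.81 that contains the satellite share of that library. Their median depth was 12348 UMIs against 7405 in satellite cells, and no macrophage of 38 had it in library 2, which allows a share of cells with a UMI of up to 7.89%, counted in the same way. In thinned cells Pax3 was found in 6.43% and Lbx1 in 3.33% of satellite cells, against at most 0.176% for either gene in fibroblasts or epithelium of any library. Intervals and floors cover counting error only.

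Six4, Eya1 and Eya4 followed other patterns. Six4, a homeodomain factor, was lowest in fibroblasts (7.76, 10.4 and 8.23 CPM), intermediate in satellite cells (19.6, 18.1 and 21.1 CPM) and highest in epithelium (29.2, 32.9 and 26.6 CPM), with no overlap between classes. Eya1, a coactivator of Six4, had the same order, with 20.2, 27.6 and 15.8 CPM in fibroblasts, 151, 156 and 197 CPM in satellite cells and 216, 251 and 246 CPM in epithelium. Its satellite value in library 3 came nearest to epithelium but did not reach it. Eya4, a further member of that coactivator family, was highest in satellite cells (232, 240 and 274 CPM) and fibroblasts (192, 199 and 255 CPM), which overlapped, and lower in epithelium (154, 109 and 108 CPM). Thinned to 5000 UMIs, 61.0% of satellite cells, 48.9% of fibroblasts and 30.6% of epithelial cells held Eya4.

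**Figure D1:**
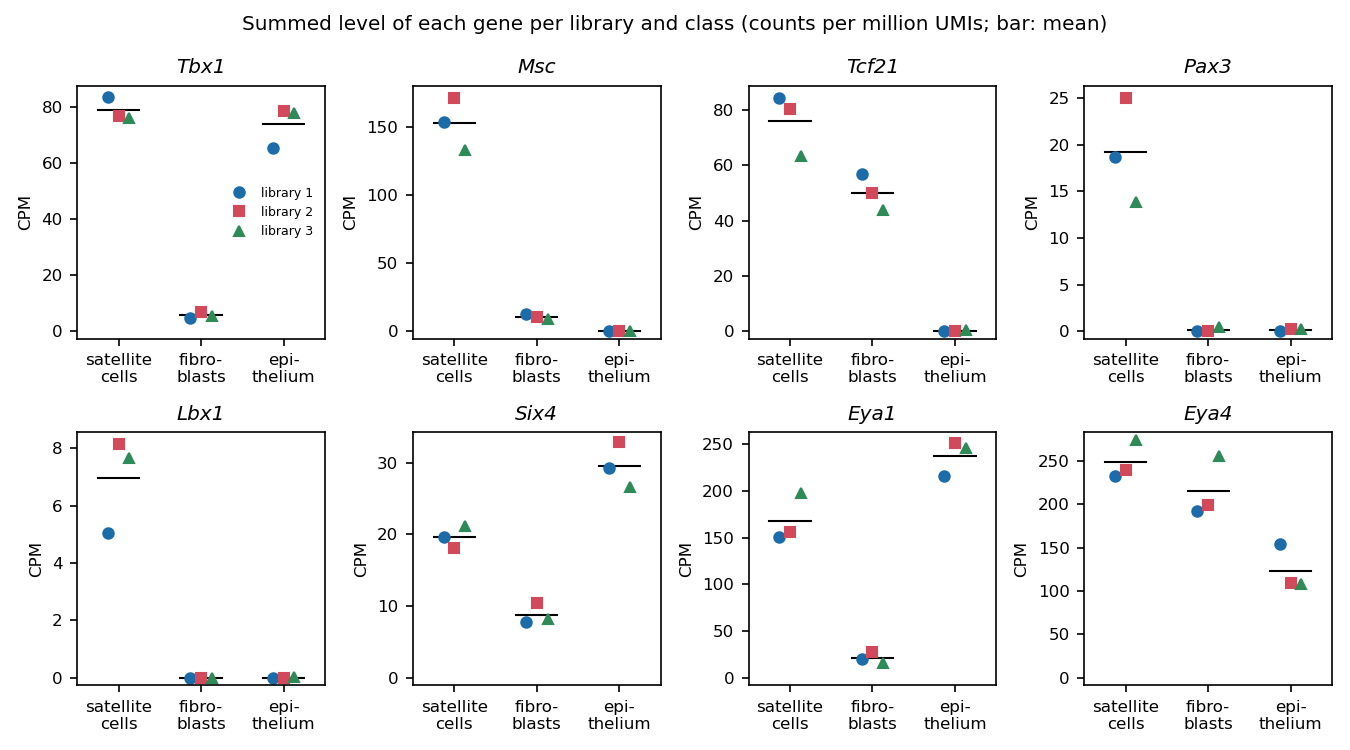
Level of each of the 8 genes (vertical axis, CPM on a linear scale starting at 0 and set per gene) in the satellite cells, fibroblasts and epithelium of the 3 libraries (points, by library) with the mean (bar). Msc, Pax3 and Lbx1 are highest in satellite cells, Tcf21 is shared with fibroblasts at 43.9 to 56.7 CPM, and Tbx1, Six4 and Eya1 are as high or higher in epithelium.

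Against epithelium, 5 of the 8 genes were called higher and 2 lower in satellite cells at an adjusted p of 0.05, where the same test called 26.3% of 16755 genes higher and 28% lower. Pax3 and Lbx1, 2 of the 5, passed the filter on low counts through satellite cells alone and had to differ. Msc and Tcf21, at no more than 0.443 and 0.399 CPM in epithelium, passed it through satellite cells and fibroblasts and had to differ too. Among the other genes Eya4 was called higher, Six4 and Eya1 were called lower, and Tbx1 was not called. Msc (9.12, SE 0.46), Tcf21 (8.36, SE 0.59), Pax3 (6.73, SE 0.76) and Lbx1 were higher on the log2 scale, and without the cluster of library 3 Msc stood at 10.19 (SE 0.22), Tcf21 at 9.62 (SE 0.35) and Pax3 at 7.30 (SE 0.69). Eya4 rose by 0.98 (SE 0.17, adjusted p = 0.00169399, edgeR). Six4 fell by 0.62 (SE 0.13, adjusted p = 0.00438028, edgeR) and Eya1 by 0.53 (SE 0.17, adjusted p = 0.0268999, edgeR), calls that were lost when some libraries were left out although the differences stayed about as large. Without library 1 Six4 stood at -0.64 (adjusted p = 0.0786, edgeR) and Eya1 at -0.53 (0.188), and without library 2 Eya1 stood at -0.52 (0.0637). Tbx1 differed by 0.07 (SE 0.13, adjusted p = 0.6904, edgeR). The marker genes that define the classes were left out of these tests, and the satellite markers and the splitting genes were left out of the tests within satellite cells.

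Against fibroblasts, 6 of the 8 genes were called higher and 0 lower, where the test called 21.9% of all genes higher and 21.6% lower. Pax3 and Lbx1 again had to differ, which leaves 4 higher among the other 6 genes. Tbx1 and Msc each rose by 3.84 on the log2 scale (SE 0.16 and 0.36), Eya1 by 3.00 (SE 0.19) and Six4 by 1.17 (SE 0.14). Pax3 and Lbx1 were at 0 UMIs in the fibroblasts of 2 and of 3 libraries, so their ratios over summed UMIs, given above, stand in place of a fitted difference. Eya4 differed by 0.20 (SE 0.17, adjusted p = 0.388437, edgeR). Both comparisons use the same sums of satellite cells.

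Between fibroblasts and epithelium, Msc (5.28, SE 0.41), Tcf21 (7.76, SE 0.58) and Eya4 (0.78, SE 0.17) were higher in fibroblasts, and Tbx1 (-3.77, SE 0.15), Six4 (-1.80, SE 0.14) and Eya1 (-3.53, SE 0.19) lower. That is 3 of 8 in each direction, where 29.2% of all genes tested were called higher and 31.2% lower. Msc and Tcf21 passed the filter on low counts through fibroblasts and satellite cells and had to differ. Pax3 and Lbx1 passed it through satellite cells alone, so the count is a description only. Without the cluster of library 3 the difference of Msc was 6.27 and that of Tcf21 8.96. Pax3 and Lbx1 were too rare in both classes for a fold to be given.

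The classes hid a wide range among clusters, shown in the map of levels by cluster, which is a description without a test. Both clusters that passed the satellite gate held all 8 genes. The larger, led by Myf5 and Chodl, held 86.0, 87.8 and 82.7 CPM of Tbx1 and 145, 156 and 171 CPM of Msc in libraries 1, 2 and 3. The smaller, led by Slc7a8 and Csmd1, held 90.9, 73.8 and 90.5 CPM of Tbx1 and 190, 185 and 233 CPM of Msc, with 48 cells in library 3. The larger held most satellite cells of libraries 1 and 3 and the smaller most of those of library 2, with 509, 227 and 1123 against 320, 511 and 38 satellite cells.

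Leaving out the mixed cluster of library 3, 19 clusters of 50 or more cells consisted mostly of cells that passed the epithelial gate, and Eya4 ranged from 4.35 to 536 CPM over them. A cluster of 1839 cells led by Cadm2 and Pcdh9 held 533, 513 and 546 CPM of Eya4 in the 3 libraries, and one of 2284 cells led by Lgals7 and Igfbp2 held 11.9, 12.999 and 3.77 CPM. Eya1 ranged from 24.7 to 378 CPM and Tbx1 from 16.8 to 117 CPM over these clusters. Six4 was highest, at 78.5 CPM, in 80 cells led by Calca and Scg2. Pax3 was at most 1.56 CPM over the 3 libraries in 18 of the 19, and in 149 cells led by the thyroglobulin gene Tg it stood at 48.4, 29.3 and 19.4 CPM in libraries 1, 2 and 3. Of the Pax3 UMIs of that cluster, 86 came from 20 of its cells that passed a gate of glial and melanocyte markers, a split chosen after seeing the data, and its other 129 cells held 10 UMIs, all in library 1, where their level was 7.76 CPM. Within the 18, the highest value of a single library was 10.6 CPM, on 19 UMIs in 204 cells of library 2 in the cluster led by Cntn5 and Ntng1, and the mixed cluster held 3.38 CPM. The cluster led by Tg held no Tcf21 and no Lbx1 UMI.

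**Figure D2:**
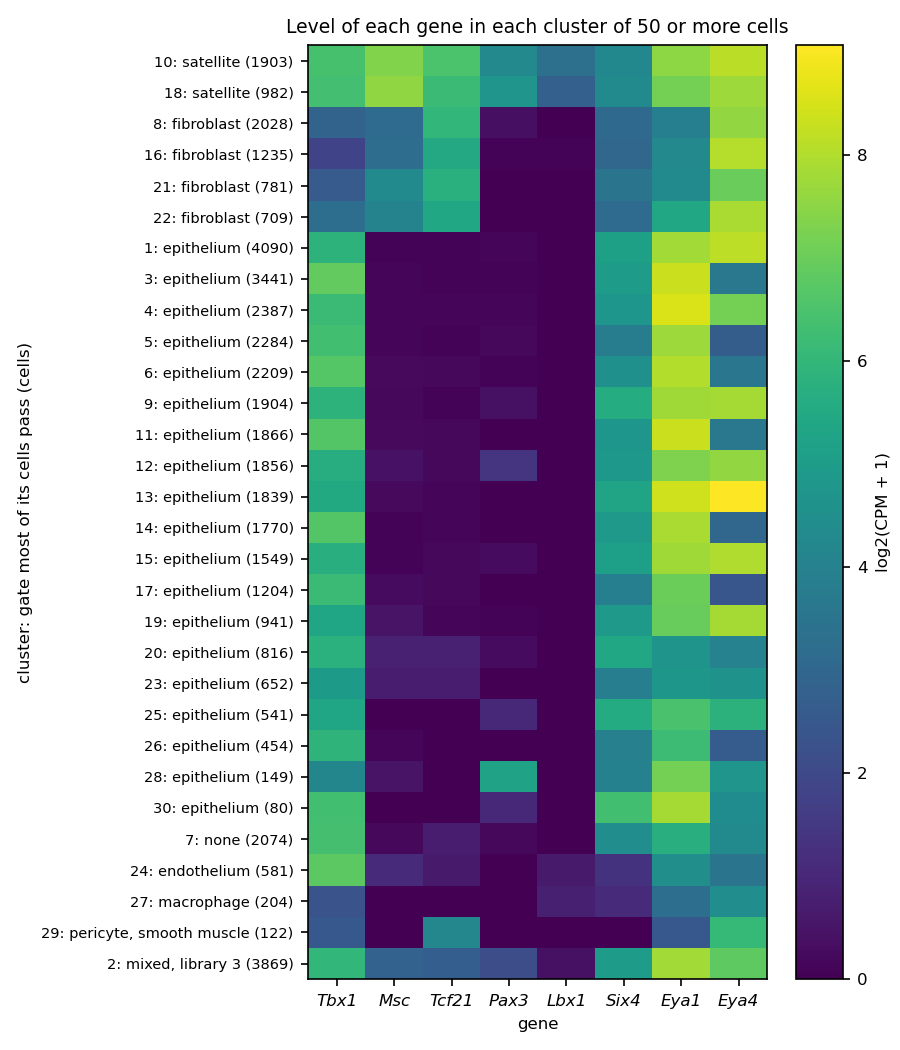
Level of each of the 8 genes (columns) in the 30 clusters of 50 or more cells (rows, with the gate most of their cells pass and the number of cells), as colour on a scale of log2(CPM + 1). Msc is high in the 2 satellite clusters at 161 and 188 CPM, Lbx1 is at 9.10 and 5.86 CPM there and near 0 elsewhere, Pax3 also appears in cluster 28, where 20 cells that passed the glial and melanocyte gate held most of it, and Eya4 spans the scale among epithelial clusters.

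Most satellite cells with a UMI of Tbx1, Msc, Tcf21, Pax3 or Lbx1 had none of Pax3 and Lbx1. Msc was found in more of the cells than Tbx1 or Tcf21. Its levels with and without Pax3 or Lbx1 overlapped, as given below, so cells with Msc alone are not set apart by it. Of the 3112 satellite cells, 2024 had a UMI of Tbx1, Msc or Tcf21 and none of Pax3 or Lbx1 (66.6% ± 6.02, SD, n = 3 libraries). Pax3 or Lbx1 without any of those 3 was found in 115 cells (3.88%), both sets in 172 cells (5.83%) and neither in 801 cells (23.7%). Satellite cells of the mixed cluster of library 3 are counted here. Neither set was found in 21.7%, 16.9% and 32.5% of satellite cells of libraries 1, 2 and 3. Pax3 and Lbx1 were found together in 62 cells, and Tbx1, Msc and Tcf21 all together in 280. With cells thinned to 5000 UMIs the means were 60.7% pharyngeal only, 4.20% somitic only, 4.45% both and 30.6% neither, over 2348 cells. A gene without a UMI in a cell may still be expressed there.

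Cells with and without the somitic factors were then compared within each library. A UMI of Pax3 or Lbx1 was found in 75, 94 and 118 satellite cells, 8.65%, 12.6% and 7.87% of them. Their median depths were 7933, 8895 and 6467.5 UMIs, against 7355.5, 8520 and 5878 UMIs in the other satellite cells. Each library gave one sum of either kind from one pool of larynges, so a fit with the library as a block stands beside the fit without it.

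Tbx1 was lower where a somitic factor was found. It stood at 36.5, 31.6 and 51.7 CPM in cells with Pax3 or Lbx1 and at 88.6, 83.9 and 78.7 CPM in cells with neither. The groups did not overlap. The log2 difference was -1.09 (SE 0.19, adjusted p = 0.287428, edgeR without a block) and -1.07 with the library as a block (SE 0.18, adjusted p = 0.00113542, edgeR). The call with the block was lost when cells were thinned to 2000 UMIs (adjusted p = 0.0596, edgeR) and without library 1 (adjusted p = 0.0634, edgeR). By the share of cells, Tbx1 was found in 16.0%, 23.4% and 24.6% of cells with a somitic factor and in 41.2%, 45.0% and 34.8% of those without. Read singly, Pax3 was found in 2.07%, 4.13% and 2.75% of cells with Tbx1 and 9.83%, 14.2% and 6.87% of those without. Lbx1 was found in 2.66%, 4.13% and 3.73% against 3.78%, 7.44% and 4.14%, a smaller difference in each library. Whether Pax3 or Lbx1 carries the lower Tbx1 was not tested.

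Tcf21 showed the same separation. Its levels were 29.8, 40.9 and 16.4 CPM in cells with Pax3 or Lbx1 and 90.3, 86.7 and 67.8 CPM in cells with neither, again without overlap. The log2 difference was -1.49 (SE 0.34, adjusted p = 0.532598, edgeR without a block) and -1.50 with the block (SE 0.19, adjusted p = 5.92386e-05, edgeR), and it was called in every alternative with the block. Msc did not separate in this way, at 164, 135 and 145 CPM against 153, 177 and 132 CPM, groups that overlapped, with a log2 difference of -0.08. It was found in 41.3%, 47.9% and 42.4% of cells with a somitic factor and 46.6%, 51.9% and 37.0% of those without.

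Eya1 (log2 difference -0.34), Eya4 (-0.23) and Six4 (-0.43) were called neither with the block nor without it. Eya1 was lower in 3 of 3 libraries, at 108, 136 and 166 CPM against 156, 160 and 201 CPM. So 2 of the 6 members tested were called with the block, where 346 of 12199 genes were (2.84%), and 0 of 6 without it, where 6 genes were (0.0492%). At an unadjusted p of 0.05, 519 genes passed without the block and 1394 with it, and DESeq2 called 44.

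**Figure D3:**
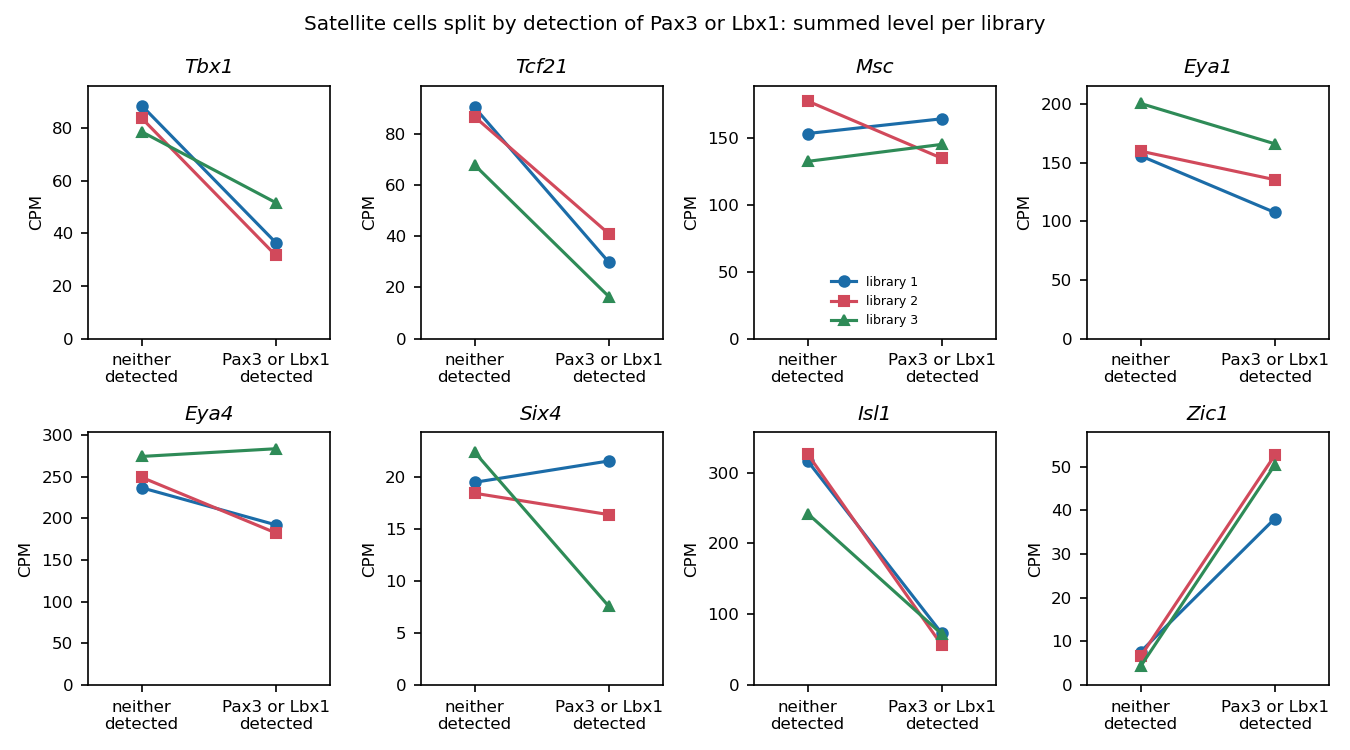
Level of 6 of the 8 genes and of Isl1 and Zic1 (vertical axis, CPM on a linear scale from 0) in satellite cells without and with a UMI of Pax3 or Lbx1, with each library's 2 values joined by a line. Tbx1, Tcf21 and Isl1 fall and Zic1 rises in all 3 libraries, while the lines of Msc, Eya4 and Six4 cross or change direction.

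The 6 genes called without the block gave these cells a signature of their own. Isl1, a LIM homeobox factor of the second heart field and branchiomeric muscle, stood at 72.9, 56.2 and 71.8 CPM with a somitic factor and at 317, 326 and 242 CPM with neither, a log2 difference of -2.17 (SE 0.21, adjusted p = 0.0322607, edgeR). Zic1, a zinc finger factor of dorsal somite and neural tube, stood at 38.1, 52.6 and 50.4 CPM against 7.63, 6.56 and 4.29 CPM (2.93, SE 0.31, adjusted p = 0.0357396, edgeR). Hs3st4, a heparan sulfate sulfotransferase, stood at 77.9, 80.7 and 68.1 CPM against 3.56, 4.25 and 2.49 CPM (4.46, SE 0.28, adjusted p = 0.00479828, edgeR). Cells with neither factor held 67 Hs3st4 UMIs in all, so this gene may have passed the filter on low counts through the other group. No library's values overlapped for any of these 3 genes. Leaving out a library in turn left 0 to 2 genes called without the block. The other 3, all lower with a somitic factor, were Csrp2 (-1.74), a LIM domain protein, Timp3 (-1.73), an inhibitor of metalloproteinases, and Meis2 (-1.53), a homeobox factor.

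The other factors of pharyngeal muscle did not all go with Tbx1. The calls that follow were made with the block, where 2.84% of all genes were called, and of them that of Isl1 alone was also made without it. Of the 5 of the 10 listed pharyngeal factors that were tested, Isl1 and Ebf1 (-1.54) were lower and Nkx2-5 (3.95) higher. Nkx2-5 did not meet the limit of at least 10 CPM with one direction in all libraries. It may have passed the filter on low counts through the cells with a somitic factor. Of the relatives of Six4 and the Eya genes, 1 of 6 tested was lower, Eya2 (-1.09). Of 5 somite and migrating precursor genes tested, Foxc1 (1.93) was higher and Sim1 (-1.77) lower. None of 8 Hox genes tested was called with or without the block, their median log2 difference being 0.78 with it beside -0.01 over all genes.

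Markers of other classes moved with this split in part. The 5 fibroblast markers summed to 184, 191 and 197 CPM in cells with a somitic factor and 288, 198 and 358 CPM in the others, and the 5 epithelial markers to 49.7, 26.9 and 159 CPM against 124, 39.4 and 416 CPM. The 7 muscle fibre genes summed to 136, 153 and 56.7 CPM against 45.6, 128 and 33.0 CPM. In satellite cells that passed no other gate the differences of Tbx1 and Tcf21 were called with the block, Tbx1 at -1.38 without it (adjusted p = 0.0407, edgeR). The 5 glial and melanocyte markers summed to 8.28, 3.51 and 7.56 CPM against 4.24, 5.50 and 6.56 CPM.

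The reverse split asked which genes differed between satellite cells with and without a Tbx1 UMI, of which 338, 315 and 510 had one. Cells with Tbx1 were deeper in each library, with medians of 8221.5, 9452 and 6418.5 UMIs against 6829, 7861 and 5729. This split uses the same cells as the split by Pax3 or Lbx1 and is no independent evidence of that relation. Pax3 stood at 5.22, 11.2 and 6.05 CPM with Tbx1 and at 29.5, 37.3 and 19.0 CPM without, and the groups did not overlap. The log2 difference was -1.92 (SE 0.43, adjusted p = 0.999702, edgeR without a block) and -1.89 with the block (SE 0.19, adjusted p = 0.000123693, edgeR), and the call held in every alternative with the block. Lbx1 stood at 3.83, 4.94 and 6.84 CPM against 6.06, 11.0 and 8.22 CPM, lower in 3 of 3 libraries but not called (-0.64 with the block, SE 0.30, adjusted p = 0.452929, edgeR).

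The other pharyngeal factors were slightly higher in cells with Tbx1. Tcf21 stood at 99.9, 92.8 and 72.1 CPM against 72.7, 70.0 and 58.0 CPM, with a log2 difference of 0.41 with the block (SE 0.08, adjusted p = 0.0150211, edgeR). Msc stood at 167, 194 and 144 CPM against 144, 152 and 126 CPM, at 0.27 with the block (SE 0.07, adjusted p = 0.046574, edgeR). For both genes the groups overlapped between libraries but the value with Tbx1 was higher in each. Neither call held in satellite cells that passed no other gate (adjusted p = 0.252 for Tcf21 and 0.152 for Msc, edgeR with the block) or without library 2 (0.0525 and 0.278), and that of Msc did not hold without library 3 (0.0678) or without its mixed cluster (0.130).

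Eya1 (0.21 with the block), Eya4 (0.09) and Six4 (0.01) were not called between these groups. In all 3 of 7 members tested were called with the block, where 271 of 12450 genes were (2.18%), and 0 of 7 by edgeR without it, where 0 genes were called (0%). At an unadjusted p of 0.05, 207 genes passed without the block and 1377 with it, and DESeq2 called 19. Of 5 pharyngeal factors tested, 3 were higher in cells with Tbx1 with the block and none lower, Isl1 (0.48) and Ebf1 (0.48) among them. The mesenchymal factors Twist1 (-1.97) and Twist2 (-2.03) were lower, as was Pdgfra (-3.05), one of the fibroblast gate genes. The 5 fibroblast markers summed to 245, 177 and 295 CPM with Tbx1 and 305, 214 and 377 CPM without, and their part in these differences was not tested.

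**Figure D4:**
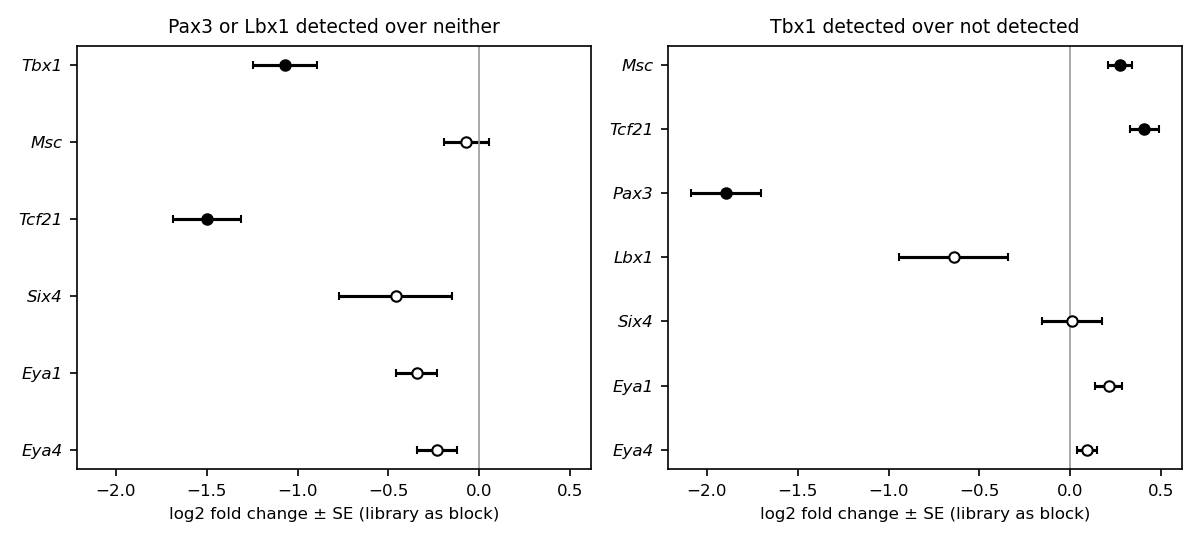
Log2 fold change with its standard error (horizontal axis) of the members tested in each split of satellite cells, from the fit with the library as a block. Filled points passed an adjusted p of 0.05: Tbx1 and Tcf21 at -1.07 and -1.50 where Pax3 or Lbx1 was found (left), and Msc, Tcf21 and Pax3 at 0.27, 0.41 and -1.89 where Tbx1 was found (right).

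No member was called between satellite cells split by Lrig1 or by Myod1 and Myog. Between satellite cells with and without a Lrig1 UMI, 0 of 8 members were called by edgeR, with or without the block, and 0 of 12420 genes were (0% in both fits), 69 and 852 of them at an unadjusted p under 0.05, and DESeq2 called 0. The differences of the 8 ran from -0.21 for Tbx1 (SE 0.14) to 0.53 for Pax3 (SE 0.43) on the log2 scale. Between satellite cells with a UMI of Myod1 or Myog, the factors of activated and differentiating muscle cells, and those with neither, 0 of 8 were called by edgeR in either fit. Satellite cells of libraries 1, 2 and 3 held 416, 386 and 804 UMIs of Myod1 and 78, 2 and 7 of Myog, so Myod1 made most of this split. There 0 of 12120 genes were called without the block (0%, 483 at an unadjusted p under 0.05, 7 by DESeq2) and 318 with it (2.62%). The members ran from -0.21 for Six4 (SE 0.22) to 0.22 for Tcf21 (SE 0.21).

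Genes that work with the 8 members were read from lists, against a background over all genes tested of 26.3% higher and 28% lower against epithelium (median -0.01) and 21.9% higher and 21.6% lower against fibroblasts (median 0.09). A listed gene nearly absent from a class passed the filter on low counts through the others and had to differ. The counts of each list are therefore a description. Of 9 pharyngeal muscle factors tested, 7 were higher and 0 lower in satellite cells than in epithelium (median log2 difference 2.85), and 3 were higher and 4 lower than in fibroblasts (median -1.16). Fibroblasts also had 7 higher and 0 lower than epithelium (median 7.40), so the count against epithelium is not particular to satellite cells. Isl1, at 271 ± 37.0 CPM in satellite cells, was higher than in epithelium by 0.85 and than in fibroblasts by 0.72. Ebf3, a helix-loop-helix factor, was higher by 6.12 and 1.98, and Ebf1 by 7.38 over epithelium, while its difference from fibroblasts was -1.16 and was not called.

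Of 7 relatives of Six4, Eya1 and Eya4 tested, among them the Dach corepressors, 0 were higher and 4 lower in satellite cells than in epithelium (median -0.79), and 4 were higher and 2 lower than in fibroblasts (median 1.24). Eya2 was lower than in epithelium (-2.33) and higher than in fibroblasts (1.24), and the corepressor Dach1 was lower in both comparisons (-0.79 and -3.54). Of 8 somite and migrating precursor genes, 3 were higher and 2 lower than in epithelium (5 and 2 with the library as a block), and 3 higher and 4 lower than in fibroblasts. Sim1 (8.73 and 5.64) and the chemokine receptor Cxcr4 (5.95 and 3.58) were higher in both, whereas Met, the receptor for hepatocyte growth factor, was lower than in epithelium (-0.94) and higher than in fibroblasts (3.12). The limit given above for genes nearly absent from a class may apply to Sim1 and Cxcr4.

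Hox genes, which mark position along the body axis, were mostly too low to test, with 14 of 39 tested. Of these 3 were higher and 5 lower than in epithelium, close to the background, and 1 higher and 9 lower than in fibroblasts (median -1.69). Of 13 myogenic and satellite state genes tested, 11 were higher than in epithelium and 13 higher than in fibroblasts. Some of these, Myod1 among them, are nearly absent outside satellite cells, passed the filter through satellite cells and had to differ, so these counts are a description only. Of 10 basic helix-loop-helix relatives, 5 were higher and 4 lower than in epithelium (6 and 4 with the block), and 1 higher and 5 lower than in fibroblasts.

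Across the 30 clusters, the genes whose level of log2(CPM + 1) went most closely with each member were named as a description. The clusters share libraries and differ in depth, so no test was made. Lbx1 went with Pitx3 (Pearson r = 0.970), Atp2a1 (0.964) and Myod1 (0.959), and Msc with its antisense neighbour Gm9947 (0.976), Megf10 (0.958) and Zim1 (0.956). Tcf21 was closest to Srpx2 (0.979), Pax3 to Slc24a2 (0.923), Eya1 to Gm16093 (0.891) and Eya4 to Pcdh9 (0.919). Tbx1 and Six4, which every kind of epithelium held, had looser partners, Micall2 (0.859) and Zkscan7 (0.854). Among the members, Msc and Tcf21 stood closest (0.883), followed by Six4 and Eya1 (0.778), Msc and Lbx1 (0.777), and Tbx1 and Eya1 (0.754), with Pax3 and Lbx1 at 0.677 and Tbx1 and Tcf21 at -0.512.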

How the data were processed

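Sorted tdTomato+ laryngeal cells were sequenced with the 10x GEM-X 3′ v4 kit. The authors deposited filtered matrices of raw UMI counts per gene and cell, made with Cell Ranger 8.0.1 on GRCm39 according to the submitters' processing notes. Kept cells had between 500 and 8000 genes, between 1000 and 40000 UMIs and no more than 8% of UMIs from mitochondrial genes, limits that the study's methods state with genes and UMIs apparently exchanged. Of 18068, 10816 and 31646 barcodes, 14252, 7527 and 27614 passed, and 1030, 326 and 3495 of these were removed as doublets by a score against simulated doublets with 0.4% expected per 1000 cells. Library pairs shared 46, 96 or 165 barcodes and no barcode was in all 3. Total UMIs were 157542777, 110177697 and 292280143.

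Classes were gated on 2 of 5 markers, the satellite gate first (Pax7, Myf5, Chodl, Cdh15, Calcr), fibroblasts by Pdgfra, Lum, Dpt, Col14a1 and Scara5, epithelium by Epcam, Cdh1, Esrp1, Grhl2 and Cldn7. A cell that was no satellite cell and passed several gates was in no class. Clusters came from Leiden clustering (resolution 1, 15 components, 2000 genes). Levels are CPM of summed UMIs. For each group of cells the UMI counts of a library were added up, and the sums were compared with edgeR 4.0.16 in R 4.3.3 (TMM, filterByExpr, quasi-likelihood test, two-sided), with p-values adjusted by Benjamini-Hochberg across the whole table. The SE beside an edgeR difference is the absolute log2 fold change divided by the square root of its F statistic. The 3 classes shared one fit, each split had its own, and scripts were tested on simulated data. Alternatives were DESeq2 1.42.0, the library as a block, no filter, leaving out each library, and other definitions of cells. The block is warranted by the design, since sums with one number come from the same pool. Their deviations from the group means correlated at 0.169 to 0.797 in the splits and 0.0559 to 0.330 between classes. P-values without the block reflect only the spread between the 3 pools, each a separate set of animals. With the block they reflect only how the differences within a pool vary over the 3 pools.

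The members and lists were chosen with earlier results of these data known. All 8 members were named. From each list those past the threshold with the largest differences were named, at most 4 per comparison, with others named for comparison after their values were seen, and from each split the 5 strongest rises and 5 strongest falls among called genes of at least 10 CPM with one direction in all libraries, where a result turned on them. Of each member, the closest genes across clusters were named. 3′ counts were not scaled by transcript length, so levels were compared between cells, not between genes. Some genes and sequences are not reported here.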

Additional observations from a re-analysis of the deposited data

Results flagged for a closer look

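Tbx1 went in opposite directions with Lrig1 in satellite cells and in epithelium. In satellite cells the log2 ratio of cells with a Lrig1 UMI over cells without one, with 1 CPM added, was -0.33, -0.15 and -0.10 in libraries 1, 2 and 3, a mean of -0.196164. In epithelium it was 0.11, 0.10 and 0.13, a mean of 0.113465. Every library of one class thus lay on the other side of 0 from every library of the other, and this opposition drew attention to the pair. It was picked from all members in satellite cells, fibroblasts and epithelium, with the clusters of a class not kept apart. The difference between the classes was not tested, and Tbx1 was not called in the test within satellite cells given above. In satellite cells the levels were 73.5, 73.0 and 73.1 CPM with Lrig1 against 92.9, 81.4 and 78.4 CPM without, and in epithelium 67.3, 80.3 and 80.4 CPM against 62.3, 74.7 and 73.4 CPM.

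Eya1 behaved likewise between fibroblasts and epithelium. The log2 ratio was -0.38, -0.68 and -0.94 in fibroblasts, a mean of -0.663495, and 0.48, 0.37 and 0.42 in epithelium, a mean of 0.424833. In fibroblasts Eya1 stood at 16.5, 19.5 and 9.94 CPM with Lrig1 and 21.8, 31.8 and 19.96 CPM without, on 108, 28 and 60 UMIs and 324, 89 and 173 UMIs. In epithelium it stood at 240, 268 and 270 CPM against 171, 207 and 201 CPM. This difference was not tested either.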

How the results depend on the processing

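Levels and calls between the classes kept their direction under the alternatives named in the methods, with 3 exceptions for the difference of Tbx1 from epithelium, which lay near 0 and was never called: -0.026 without a filter on low counts and -0.069 without library 1, or -0.071 with the block, the values without 1 library reaching 0.15. Leaving out a library gave 3896 to 9513 genes called between satellite cells and epithelium without the block (9094 with all libraries) and 5625 to 9757 with it, 2818 to 6816 (7279) and 3900 to 7011 between satellite cells and fibroblasts, and 6285 to 10040 (10121) between fibroblasts and epithelium, the lowest each time without library 1. The 6 weaker calls were those of Six4 and Eya1 against epithelium.

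Within satellite cells the count of calls rested on the replicate block. The pairing by pool moved it from 0 to 318 for Myod1 or Myog, from 6 to 346 for Pax3 or Lbx1, from 0 to 271 for Tbx1 and left it at 0 for Lrig1. The following alternatives with the block were added after seeing the data. Without the cluster of library 3 the block gave 309, 220 and 262 calls for Myod1 or Myog, Pax3 or Lbx1, and Tbx1. In cells that passed no other gate it gave 73, 283 and 179, in cells thinned to 2000 UMIs 158, 98 and 103, and in the larger satellite cluster 99, 134 and 134, while for Lrig1 these last 3 gave 19, 9 and 15. Leaving out libraries 1, 2 and 3 in turn with the block gave 250, 366 and 163 calls for Myod1 or Myog, 117, 442 and 171 for Pax3 or Lbx1, 401, 223 and 178 for Tbx1, and 0, 73 and 1 for Lrig1. Without the block it gave 0 to 3 for Myod1 or Myog, 0 to 2 for Pax3 or Lbx1 and 0 for the other splits. DESeq2 called 7 genes for Myod1 or Myog, 44 for Pax3 or Lbx1 and 19 for Tbx1, and no filter gave 2 for Myod1 or Myog and 35 for Pax3 or Lbx1. For Pax3 or Lbx1 without the block, cells that passed no other gate gave 17 calls, no limits on cells 0, doublets kept 1, thinning 2 and the larger cluster 43. For Tbx1 the first and last of these gave 2 and 4. The cause of these shifts was not tested.

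No member was called under a setting in which its sign changed. Tcf21 with Myod1 or Myog was -0.090 in the larger cluster. Six4 in that split was 0.18 in that cluster with or without the block, 0.025 in cells that passed no other gate with the block, and ran from -0.39 to 0.020 as 1 library was left out, 0.0095 with the block and without library 1. With Pax3 or Lbx1, Msc ran from -0.19 to 0.11 as 1 library was left out, 0.12 with the block and without library 2, and Six4 was 0.12 in thinned cells, or 0.11 with the block. With Tbx1, Six4 was -0.38 in cells that passed no other gate, -0.16 in thinned cells and -0.012 in the larger cluster, or -0.39, -0.18 and -0.022 with the block, and -0.18 without library 1 in both fits, up to 0.14 without another. Msc was -0.0062 without limits on cells, and Eya4 -0.20 there and -0.10 with doublets kept. Precision is limited by 3 pools and by the 419 and 160 UMIs of Pax3 and Lbx1 in satellite cells.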
